A study of Rattus norvegicus with 14 samples.

Results

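The genes described here encode the ATP-driven protein folding machines of the cell: the HSP70 and HSP110 proteins, the HSP90 proteins, the ring-shaped chaperonins and the DnaJ proteins that serve HSP70. They were taken as every gene whose single symbol begins with Hsp90, or with Hspa, Hspd, Hspe, Hsph, Dnaja, Dnajb, Dnajc or Cct followed by a number. This rule found 62 of the 14217 genes with a symbol of their own on the array, through 97 probe sets, and the probe set with the highest mean signal stood for each gene. Of these, 58 passed the filter on dim values, together with 11062 genes in all. Dnajb13, Dnajb3, Dnajb7 and Hspa4l did not pass and were not tested. Probe sets that name several genes were left out, so Hspa8, Hsp90aa1 and Hspa1b, which are reached only by such probe sets, are not among the 62.

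The study measured soleus, a slow postural calf muscle, of male Sprague Dawley rats after tenotomy, the cutting of the tendon that leaves a muscle unloaded and immobile. Each of 14 Affymetrix arrays read total RNA of 1 whole muscle, and 12 rats gave them. No group carries a labelled genetic change or drug. The control group held 4 left muscles, the short-term group 6 right muscles tenotomized for 1 week (2 arrays), 2 weeks (2), 3 weeks (1) and 4 weeks (1), and the long-term group 4 right muscles tenotomized for 6 weeks (2), 16 weeks (1) and 22 weeks (1). Rats 61 and 62 each gave a control and a 6-week muscle. No rat gave both a control and a short-term muscle and no age is stated, so a difference between cohorts, or between left and right, cannot be told apart from tenotomy there. The controls were not sham-operated muscles as far as the labels say.

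Chaperones of the HSP70 family bind short hydrophobic stretches of unfolded proteins and release them with the help of DnaJ proteins, which start ATP hydrolysis, and of nucleotide exchange factors such as the HSP110 proteins. HSP90 acts later, on nearly folded clients such as kinases and steroid receptors. The cytosolic chaperonin, built of CCT subunits, encloses actin and tubulin while they fold, and the mitochondrial chaperonin of HSP60 and HSP10 does so for imported proteins. Each compartment has its own set: Hspa9, Hspd1 and Hspe1 in mitochondria, Hspa5 and Hsp90b1 in the endoplasmic reticulum (ER), and Hspa1a, Hsp90ab1 and the CCT subunits in the cytosol. Muscle depends on them for the assembly of contractile proteins and the import of proteins into its many mitochondria.

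Promoter sequences are shown for members of the 2 textbook stress responses of chaperones: the heat shock response, in which Hsf1 binds heat shock elements, and the unfolded protein response of the ER, which acts through ER stress elements. RefSeq windows from 250 bases before to 50 bases after the start of transcription (build GRCr8) were matched for 52 of the 62 members. The heat shock element was searched as the blocks GAA, TTC and GAA with 2 bases of any kind between each, and the ER stress element as CCAAT and CCACG with 9 bases between, both on either strand. The heat shock element occurred in 5 of the 52 members (9.62%), namely Cct4, Dnaja1, Hspd1, Hspe1 and Hsph1, and in 202 of 27457 genes with a listed window (0.736%). The windows of Hspa1a, Dnajb1 and Hsp90ab1 were searched too and held no match to these letters. The ER stress element occurred in 3 of 52 members (5.77%), all 3 among the 12 ER members, and in 21 of the 27457 genes (0.0765%). It holds the CCAAT box, which occurred in 46.2% of the members and 37.7% of all genes. A match of letters is not a measured binding site. Hspd1 and Hspe1 lie head to head: their starts are 290 bases apart and 211 bases upstream of them are shared, so the window of Hspe1 also shows the pair of overlapping heat shock elements counted for Hspd1. The 250 bases before the start, on the strand of the gene, are printed with the matches in capitals, for Hspe1 (chr9:64084077-64084326, plus strand), Hsph1 (chr12:10427118-10427367, plus strand), Hspa5 (chr3:38452766-38453015, plus strand), Hsp90b1 (chr7:23012294-23012543, minus strand) and Dnajc3 (chr15:102432417-102432666, plus strand).
Hspe1: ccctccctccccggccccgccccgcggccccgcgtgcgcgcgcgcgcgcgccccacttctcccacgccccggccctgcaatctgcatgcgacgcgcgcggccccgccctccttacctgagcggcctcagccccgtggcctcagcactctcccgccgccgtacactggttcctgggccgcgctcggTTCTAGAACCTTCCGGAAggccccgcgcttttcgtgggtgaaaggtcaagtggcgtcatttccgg
Hsph1: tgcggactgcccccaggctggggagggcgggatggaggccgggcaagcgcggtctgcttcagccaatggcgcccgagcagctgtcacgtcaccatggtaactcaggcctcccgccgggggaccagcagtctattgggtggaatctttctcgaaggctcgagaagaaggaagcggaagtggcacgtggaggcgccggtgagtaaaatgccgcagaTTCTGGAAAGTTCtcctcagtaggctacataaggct
Hspa5: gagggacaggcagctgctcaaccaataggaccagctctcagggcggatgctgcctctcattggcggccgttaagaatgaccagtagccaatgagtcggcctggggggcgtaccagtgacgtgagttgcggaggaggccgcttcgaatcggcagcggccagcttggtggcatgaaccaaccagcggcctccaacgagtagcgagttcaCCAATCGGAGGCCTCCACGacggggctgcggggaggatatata
Hsp90b1: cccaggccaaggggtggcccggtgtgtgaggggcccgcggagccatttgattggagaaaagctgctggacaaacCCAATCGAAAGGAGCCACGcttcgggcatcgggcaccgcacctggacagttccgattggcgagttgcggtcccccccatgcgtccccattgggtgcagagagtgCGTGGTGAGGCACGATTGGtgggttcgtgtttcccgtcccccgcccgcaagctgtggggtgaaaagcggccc
Dnajc3: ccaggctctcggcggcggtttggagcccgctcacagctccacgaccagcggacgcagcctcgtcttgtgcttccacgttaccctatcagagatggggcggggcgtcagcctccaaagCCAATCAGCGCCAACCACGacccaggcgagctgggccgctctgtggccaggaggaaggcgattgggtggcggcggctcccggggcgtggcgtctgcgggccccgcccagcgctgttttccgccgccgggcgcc
The heat shock elements of Hspe1 overlap each other, begin 65 bases before its start and leave 47 bases between their end and the start. That of Hsph1 begins 36 bases before the start and leaves 23 bases. The ER stress element of Hspa5 begins 43 bases before the start and leaves 24 bases, and that of Dnajc3 begins 133 bases before and leaves 114. The 2 of Hsp90b1 lie between 176 and 53 bases before its start.

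Signals are the deposited probe set intensities after each array was shifted to the same median of the genes tested. Values are given per array, and for the short-term group as the lowest, median and highest of its 6 arrays. Changes are log2 differences between group means from limma, with a 95% interval, and "rose" and "fell" are used only where the Benjamini-Hochberg adjusted p over all 11062 genes was under 0.05. The scaling left the median gene at -0.12 in short-term against control, 0.12 in long-term against short-term and -0.01 in long-term against control, and changes called relative are given after subtracting this.

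The short-term arrays differed from the others beyond these genes. Their spiked poly-A controls read 289 on average against 116 on the control and 143 on the long-term arrays, and the ratio of 3′ to 5′ signal was 1.33 against 2.08 and 1.78 for Gapdh and 2.62 against 1.86 and 2.33 for actin. None of the 8 markers of muscle fibres passed the test, and their summed signal ran from 59077 to 76254 on the control, 55707 to 86666 on the short-term and 66134 to 83913 on the long-term arrays. Macrophage markers were higher in 9 of 10 (sums of 851 to 1853, 3006 to 6280 and 476 to 1937) and fibroblast markers in 7 of 8 (10526 to 14749, 32948 to 53958 and 4262 to 17450). Of the tested markers of adipocytes 1 of 4 and of Schwann cells 2 of 2 rose, and of endothelium 1 of 4, Kdr, fell; no defining macrophage or fibroblast marker had a group mean at the floor. The part of these shifts in the results was not tested, and in whole muscle fewer cells of a type and less RNA per cell cannot be told apart.

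In short-term muscle 25 of the 58 members fell and 3 rose, where 26.6% of all genes tested fell and 17.9% rose. The median member changed by -0.36, or -0.24 relative to the median gene. Every short-term array lay below every control array for 18 members, against 19.0% of all genes, and above for 2, Dnajc1 and Dnajb1, against 11.7%. In long-term against short-term muscle 23 members were higher and 3 lower (Dnajc1, Dnajb1 and Hsp90b1), where 26.2% and 17.4% of all genes were. How the arrays are scaled moves these counts: of all genes 1977 rose and 2937 fell here, 2541 and 2018 at a common trimmed mean and 1104 and 3238 on the deposited scale, while of the members 6 rose and 18 fell, and 1 rose and 33 fell. Without control replicate 1 only 1 member rose. The short-term arrays serve both comparisons, so the opposite signs are not independent of each other. In long-term against control 0 of 58 members and 0% of the 11062 genes passed the test, 244 genes (2.21%) had an unadjusted p under 0.05, and Hspa1a was the 1 member among them. The compartments differed in their values, as the plot of changes by compartment shows.

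**Figure D1:**
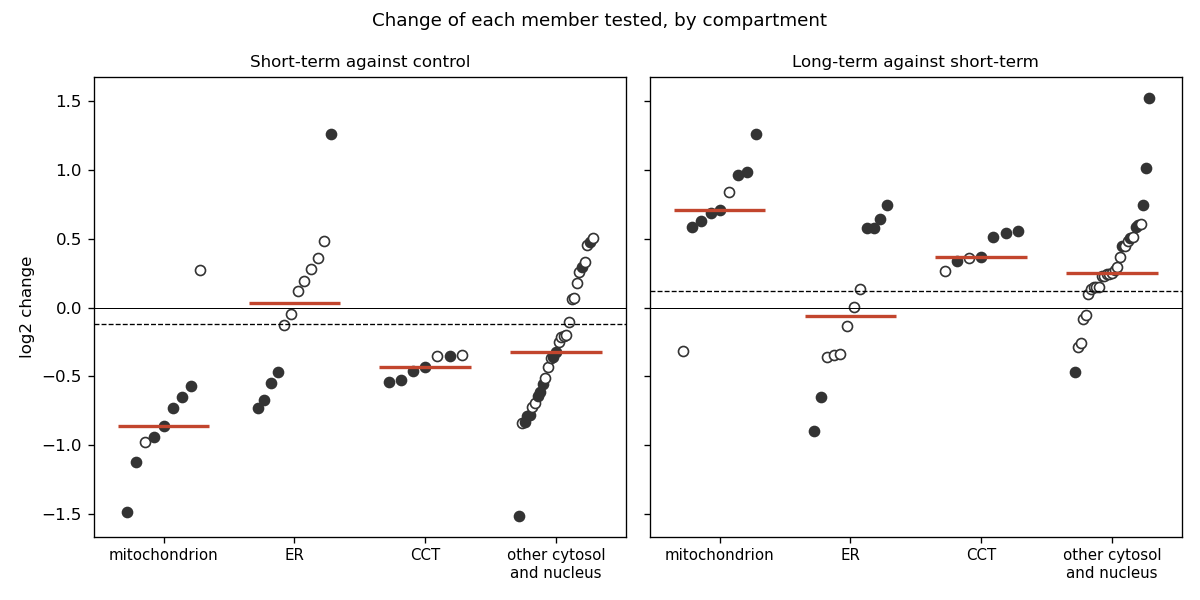
Log2 change of each of 57 members tested (Dnajc22, of unassigned compartment, is left out) in short-term against control (left) and long-term against short-term muscle (right), by compartment. Filled points have an adjusted p under 0.05, red bars are medians and the dashed line is the median of all 11062 genes tested. The mitochondrial median lies at -0.86 and 0.71, the ER median at 0.04 and -0.07, the CCT median at -0.43 and 0.37.

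The mitochondrial chaperones fell together in short-term muscle. Of the 9 mitochondrial members, 7 fell and none rose, where 26.6% of all genes fell and 17.9% rose. Their median was -0.86 (-0.74 relative). The same 7 (Hspa9, Hspd1, Hspe1, Dnajc15, Dnajc19, Dnajc4 and Dnajc30) fell under each of 7 scalings of the arrays and without any 1 of the 14 arrays. For 6 of the 9, all among these 7, every short-term array lay below every control array, as for 19.0% of all genes. The same 7 were higher in long-term than in short-term muscle and none was lower, where 26.2% and 17.4% of all genes were. The median of the 9 was 0.71 (0.59 relative).

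Hspa9, the HSP70 of the mitochondrial matrix and the motor of protein import, showed the largest fall among them. Its signal was 3508, 3721, 4595 and 2504 on the control arrays, 859, 1297 and 1632 at the lowest, median and highest short-term array, and 2744, 2358, 3209 and 3904 on the long-term arrays. All 6 short-term arrays lay below all 8 others, with a change of -1.49 (-1.92 to -1.05, adjusted p = 7.25e-05, limma), or 0.357-fold, and of 1.26 (0.83 to 1.70, adjusted p = 0.000257) from short-term to long-term. Its other 3 probe sets gave -2.21 and -0.95, both past the test, and 0.88 (adjusted p = 0.42) at a mean signal of 47.4, and the mean of all 4 probe sets did not pass from short-term to long-term. At 6 weeks the muscle of rat 61 read 2744 against 2504 in its own control, and that of rat 62 2358 against 3508.

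Hspd1 and Hspe1, the HSP60 barrel and its HSP10 lid, fell by 0.73 and 0.65 on the log2 scale. Hspd1 read 3514, 3952, 4203 and 2991 on the control arrays, 1584, 2142 and 2887 in short-term muscle and 3236, 3108, 3569 and 4654 in long-term muscle (interval -1.10 to -0.35, adjusted p = 0.00381). No short-term array of Hspd1 reached a control or long-term array. Hspe1 read 4204, 4754, 5046 and 3413 on the control arrays, 2097, 2635 and 3477 in short-term muscle and 3555, 3677, 4066 and 5407 in long-term muscle (SE 0.17, adjusted p = 0.00522). For Hspe1 the highest short-term array, from week 1, passed the lowest control array. From short-term to long-term muscle they were higher by 0.71 and 0.59. The changes of the pair were of like size at each step, and any part of their shared upstream bases in this was not tested.

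The DnaJ proteins of the import motor moved the same way. Dnajc15 and Dnajc19, which sit at the inner membrane and work with Hspa9 on incoming proteins, changed by -1.13 (-1.49 to -0.76, adjusted p = 0.000147) and -0.57 (-0.81 to -0.34, adjusted p = 0.000773). Dnajc15 read 2825, 2786, 2698 and 2579 on the control arrays, 826, 1227 and 1872 in short-term muscle and 2487, 2368, 2248 and 2782 in long-term muscle, without overlap of the short-term with either other group. The controls of Dnajc19 lay between 2079 and 2189 and its short-term arrays between 1260 and 1651 (SD 0.03 and 0.14 on the log2 scale).

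Dnajc4, a membrane DnaJ protein of mitochondria, fell to 0.521-fold and Dnajc30, which associates with ATP synthase, to 0.55-fold. Dnajc4 read 435, 558, 490 and 475 on the control arrays, 215, 250 and 314 in short-term muscle and 441, 475, 519 and 558 in long-term muscle, a change of -0.94 (-1.22 to -0.67, adjusted p = 7.39e-05) and back of 0.97. Dnajc30 fell by 0.86 on the log2 scale (adjusted p = 0.000576) and was higher by 0.63 in long-term muscle, but neither passed when its probe sets were averaged. Its second probe set had a mean signal of 12.4, near the floor of 9.69.

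Dnaja3, the DnaJ partner of Hspa9 in the matrix, and Dnajc11, of the cristae-organizing complex, did not pass. Dnaja3 read 551, 556, 385 and 236 on the control arrays and 348 and 439 at week 1, 302 and 126 at week 2, 115 at week 3 and 119 at week 4. Its change of -0.98 (-1.80 to -0.15) had an adjusted p of 0.0514, which fell to 0.0374 with rat as a random block and to between 0.0139 and 0.0407 without short-term replicate 1, 2 or 3 or control replicate 4. Dnajc11 lay at 78.3, 94.8 and 76.0 in the group means of control, short-term and long-term muscle (0.28, -0.13 to 0.68, adjusted p = 0.256).

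**Figure D2:**
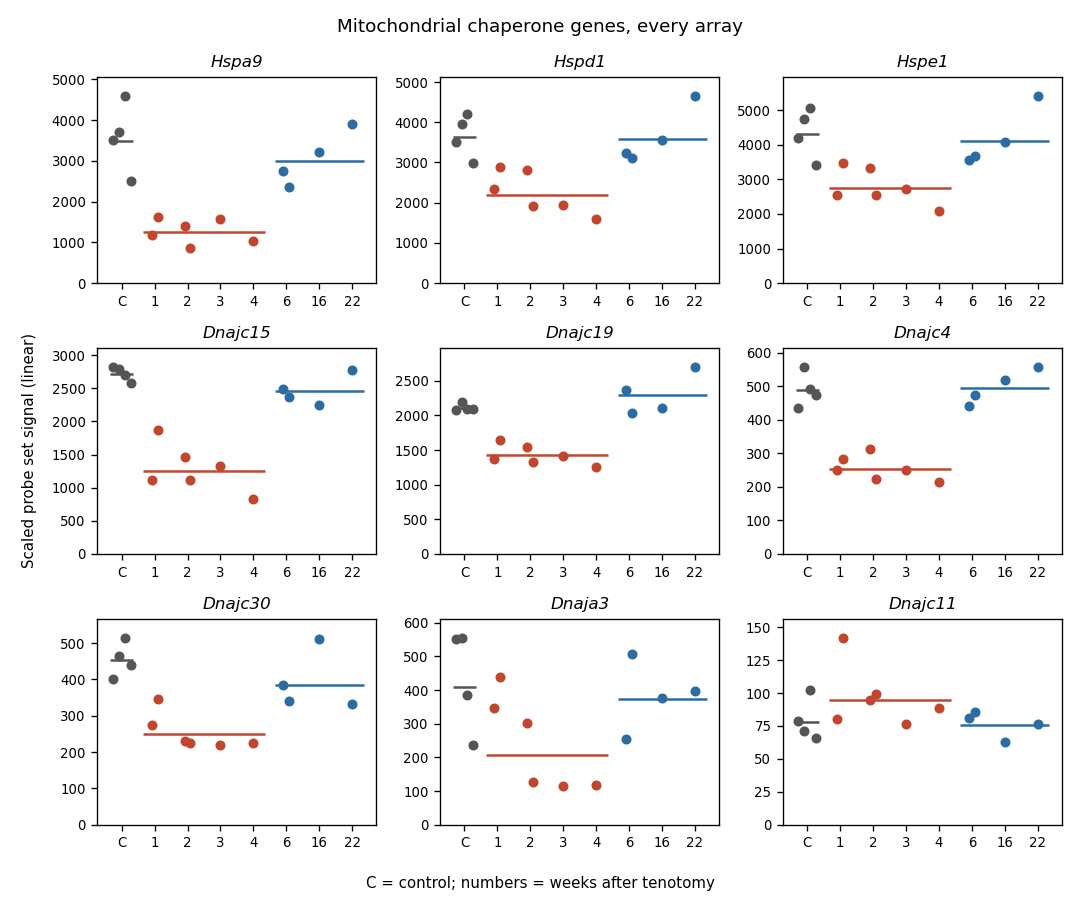
Scaled linear signal of the 9 mitochondrial members on every array, by group and week after tenotomy (C = control). Bars are geometric means of the control, short-term and long-term groups, and axes start at 0. In 6 of the 9 panels every short-term point lies below every control point, as for 19.0% of all genes tested. For Hspa9 the points lie at 859 to 1632 against 2504 to 4595.

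Genes outside the rule that serve the same compartment are given by count. Of 15 tested genes of mitochondrial folding and proteolysis, 11 fell and none rose in short-term muscle (median -0.89), and 11 were higher and none lower in long-term than in short-term muscle (0.72). Over all genes, 26.6% fell and 17.9% rose, and 26.2% were then higher and 17.4% lower. Grpel1, the nucleotide exchange factor of Hspa9, went from 1537 to 712 and to 1361 in the group means of control, short-term and long-term muscle (-1.11). Lonp1 and Clpp, which degrade matrix proteins, changed by -1.38 and -1.14, and Trap1, the mitochondrial HSP90, by -0.78.

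The ER chaperones did not move as a set. Of the 12 ER members, 1 rose (Dnajc1) and 4 fell (Dnajb9, Dnajb12, Dnajc18 and Dnajc14) in short-term muscle, where 17.9% and 26.6% of all genes did. The median of the ER members was 0.04 (0.16 relative). The sign of that median depends on the scaling: it was -0.16 on the deposited scale and -0.19 at a common median of all probe sets, while relative to the median gene it lay between 0.15 and 0.16 in all 7 scalings. With a common trimmed mean or with the median gene held at no change, 3 ER members rose and 2 fell.

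Hsp90b1, the HSP90 of the ER (GRP94), read 916, 860, 1353 and 693 on the control arrays, 989, 1328 and 1746 in short-term muscle and 847, 920, 724 and 832 in long-term muscle. The short-term arrays overlapped the controls but lay above all 4 long-term arrays. It was lower in long-term than in short-term muscle by 0.65 on the log2 scale (-1.06 to -0.23, adjusted p = 0.0142), a call that was lost on the deposited scale (0.123) and at a common median of all probe sets (0.142). The change from control of 0.48 (0.07 to 0.90, adjusted p = 0.055, and 0.61 relative) passed with rat as a random block (0.0374), without control replicate 3 (0.0138) and without short-term replicate 1, 2 or 3 (0.0304 to 0.049). It also passed after quantile normalization (0.0109), at a common trimmed mean (0.0211) and with the median gene held at no change (0.028).

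Hspa5, the HSP70 of the ER (BiP), did not pass in any comparison. Its control arrays read 2847, 1868, 4881 and 1482, its short-term arrays 1852, 2457 and 4765 and its long-term arrays 1774, 2116, 1908 and 2863. The 2 arrays of week 2 (3541 and 4765) and control replicate 3 stood above the rest, and the change was 0.12 with an interval from -0.53 to 0.77. Dnajb11, a DnaJ partner of Hspa5, had group means of 216, 278 and 216 in control, short-term and long-term muscle (0.36, adjusted p = 0.128) and rose at 2 weeks (0.68, adjusted p = 0.0122). Dnajc3, an inhibitor of the ER stress kinase PERK, had 272, 263 and 264, with an interval of -0.34 to 0.24 for short-term against control. Hspa13, Dnajb14 and Dnajc10 gave 0.20, 0.28 and -0.13, none past the test.

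Dnajc1, an ER membrane DnaJ protein, rose most among all members. It read 126, 111, 116 and 130 on the control arrays, 239, 267 and 438 in short-term muscle and 155, 220, 111 and 151 in long-term muscle, a change of 1.26 (0.85 to 1.67, adjusted p = 0.000149) and then of -0.90. No short-term array overlapped another group. Of its other 2 probe sets, both dim, 1 at a mean signal of 24.6 gave -0.27 (adjusted p = 0.456) and 1 at 14.4 was not tested, so the rise rests on 1 probe set. Dnajb9 (ERdj4), which helps to clear misfolded ER proteins, fell by 0.67 on the log2 scale, from control arrays of 852 to 1345 to short-term arrays of 533 to 769, without overlap. Dnajc18 and Dnajb12, both ER membrane proteins, fell by 0.73 and 0.55, and the call on Dnajb12 was lost without control replicate 2 (0.0756) or 3 (0.0792). It was also lost at a common trimmed mean (0.0923) and with the median gene held at no change (0.0601). Dnajc14 fell by 0.47, while its other probe set gave 0.12. That call was lost when the probe sets were averaged (0.316), at a common trimmed mean (0.0937) and with the median gene held at no change (0.0675).

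Of the 12 ER members 4 were higher and 2 lower in long-term than in short-term muscle, where 26.2% and 17.4% of all genes were. The 4 higher ones were the 4 that fell in short-term muscle: Dnajb12 by 0.74 (adjusted p = 0.00452), Dnajc18 by 0.65 (0.00337), Dnajb9 by 0.58 (0.0114) and Dnajc14 by 0.58 (0.00571). The call on Dnajb9 was lost without long-term replicate 4 (0.0536) and after quantile normalization (0.0985), and that on Dnajc14 when its probe sets were averaged (0.171). Dnajc18 reached 146 on the array of week 16, within the range of the short-term arrays, and 214 to 227 on the other 3 long-term arrays.

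**Figure D3:**
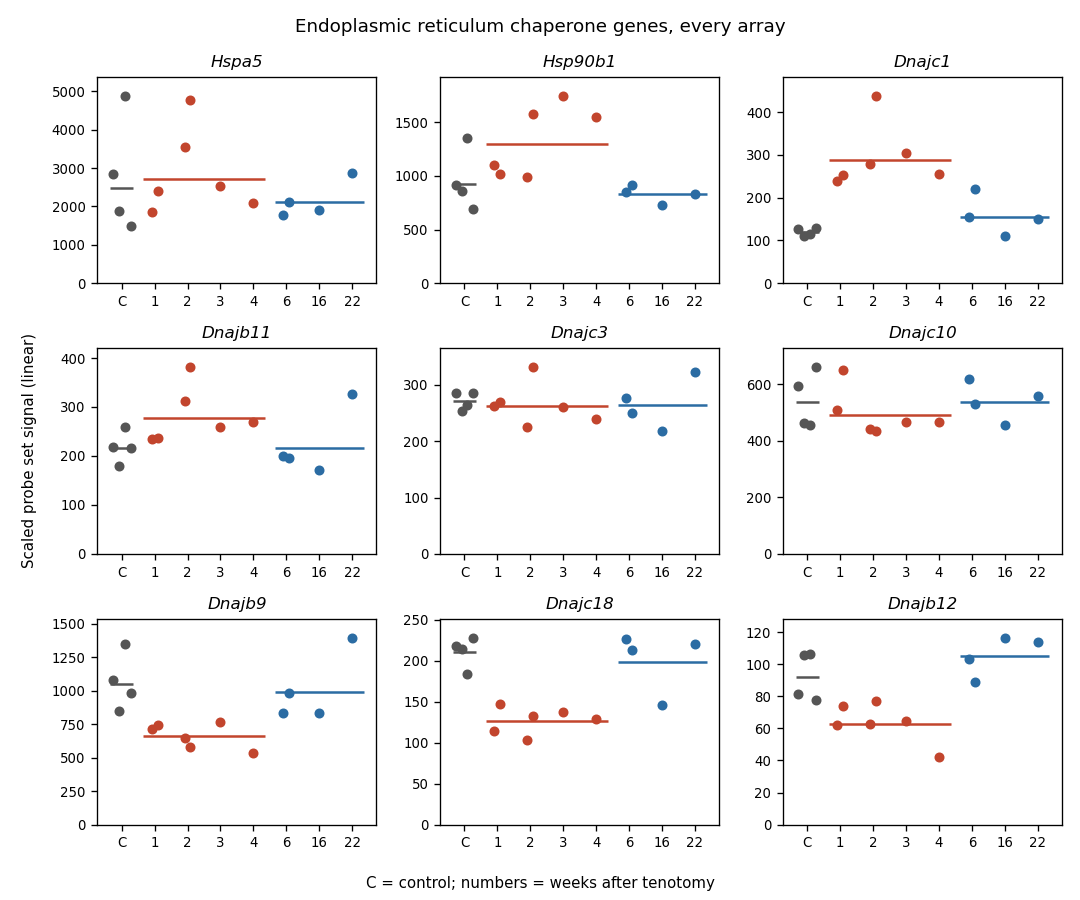
Scaled linear signal of 9 of the 12 ER members on every array, by group and week after tenotomy (C = control). Bars are geometric means of the control, short-term and long-term groups, and axes start at 0. Dnajc1 lies at 239 to 438 in short-term against 111 to 130 in control muscle, while Dnajb9, Dnajc18 and Dnajb12 lie lower and Hspa5 overlaps throughout.

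Other genes of ER folding and the unfolded protein response changed in both directions. Of 27 tested, 12 rose and 3 fell in short-term muscle (median 0.44), and 3 were higher and 13 lower in long-term than in short-term muscle. Over all genes, 17.9% rose and 26.6% fell, and 26.2% were then higher and 17.4% lower. Pdia3, a disulfide isomerase of glycoproteins, rose by 1.52, Sec61b of the translocon by 1.28 and Ppib, a cyclophilin of collagen folding, by 1.12. Among the 27, the genes that fell were Ddit3 (-1.75), encoding the stress factor CHOP, Herpud1 (-1.28), of ER-associated degradation, and Ero1b (-0.85), an oxidase. The summed signal of fibroblast markers, of cells that secrete collagen, averaged 12522 on the control and 38692 on the short-term arrays, and its part in these values was not tested.

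The subunits of the cytosolic chaperonin lay lower in short-term muscle, with a smaller median change than the mitochondrial members. All 7 CCT members had a negative change, with a median of -0.43 (-0.31 relative), and 5 fell: Cct2, Cct4, Cct5, Cct7 and Cct8. Quantile normalization left 1 call, Cct5, and a median of -0.16 (-0.08 relative). Tcp1, which encodes a further subunit under a name outside the rule, fell by 0.52. Of 10 tested genes of prefoldin and chaperonin helpers 9, Tcp1 among them, fell (median -0.57), where 26.6% of all genes did.

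Cct2 read 1856, 1877, 2039 and 1849 on the control arrays, 1047, 1356 and 1671 in short-term muscle and 1777, 1858, 1753 and 2353 in long-term muscle, with no overlap. It fell by 0.53 on the log2 scale (-0.83 to -0.22, adjusted p = 0.00762). Cct7 read 1706, 1569, 1612 and 1571 against 992, 1108 and 1437, again without overlap (-0.46, -0.72 to -0.21, adjusted p = 0.00602). Cct5 changed by -0.54 and its second probe set by -0.74, both past the test, although the short-term array at 3214, from week 2, passed the lowest control at 2989. Cct8 (adjusted p = 0.0497) still passed without short-term replicate 2 or 3 or long-term replicate 4 and was lost without any other 1 array, with values up to 0.136 without control replicate 3, and Cct4 (0.0338) without control replicate 1, 2 or 3 or short-term replicate 4 or 6, with values up to 0.114. Both were also lost at a common trimmed mean and with the median gene held at no change. Cct8 was further lost at a common 75th percentile, with no filter, with no floor, without an intensity trend and with only the groups compared. Cct3 and Cct6a gave -0.36 and -0.35 and did not pass.

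In long-term against short-term muscle 5 of the 7 CCT members were higher (Cct2, Cct4, Cct5, Cct7 and Cct8), where 26.2% of all genes were. The median of the 7 was 0.37 (0.24 relative). After quantile normalization none passed, with a median of 0.065 (-0.01 relative). Long-term replicate 4, at 22 weeks, was the highest of its group for all 7. Without it Cct5, Cct7 and Cct8 were lost (adjusted p = 0.0562, 0.0754 and 0.0639), as was Cct4 (0.144), which was also lost without any 1 of 7 other arrays, and Cct2 stayed past the test. Cct4 and Cct7 were also lost at a common trimmed mean, with the median gene held at no change and with only the groups compared.

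Among the other cytosolic and nuclear members 2 rose and 9 of 29 fell, where 17.9% and 26.6% of all genes did. The median of these members was -0.32. Hsp90ab1, the constitutive HSP90 of the cytosol, read 5388, 6334, 6521 and 5141 on the control arrays, 3913, 4696 and 7097 in short-term muscle and 6024, 5566, 5836 and 6489 in long-term muscle. The arrays of weeks 3 and 4 and 1 array each of weeks 1 and 2 lay below the controls, while the highest array was also from week 1. The change of -0.20 (-0.54 to 0.13) did not pass (adjusted p = 0.31), but it did on the deposited scale (0.0321) and at a common median of all probe sets (0.0247). A second probe set gave 0.29 (adjusted p = 0.67).

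Hspa1a, the stress-inducible HSP70, was the member with the largest positive change from control to long-term muscle. Its control arrays read 1286, 1007, 1761 and 1622, its short-term arrays 1302, 1724 and 3508 and its long-term arrays 2742, 2000, 1719 and 2402. The change was 0.50 (-0.03 to 1.04, adjusted p = 0.115) in short-term and 0.65 (0.07 to 1.24) in long-term muscle, where 1 array lay within the range of the controls and no gene passed the adjusted test. The short-term change did pass after quantile normalization (0.00831), at a common trimmed mean (0.0281) and with the median gene held at no change (0.0454). In the 6-week pairs it was higher than in the opposite muscle by 0.76 in rat 61 and 0.64 in rat 62. Hspa1a and the left-out Hspa1b are near-identical copies, so signal of one may reach the probes of the other.

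The remaining cytosolic HSP70 and HSP110 members did not pass in short-term against control. Hsph1, an HSP110 exchange factor with a heat shock element upstream, read 1201, 1133, 1176 and 1025 on the control arrays, 426, 832 and 1191 in short-term muscle and 911, 1016, 1072 and 1641 in long-term muscle (-0.51, -1.02 to -0.01, adjusted p = 0.0926), the lowest value being that of week 4. A second probe set gave -0.80 and did pass (adjusted p = 0.0474). Hspa4, Hspa2, Hspa14 and Hspa12a changed by 0.26, 0.07, 0.07 and -0.10, none past the test. Hspa12b gave -0.69 (adjusted p = 0.0656) over all short-term arrays but fell at 1 week (-1.27, adjusted p = 0.0254). Hspa1l gave -0.84 (0.0946), with 3 of 6 short-term arrays at the floor.

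The cytosolic DnaJ members moved in both directions. Dnajb1, the main partner of inducible HSP70, read 172, 258, 247 and 261 on the control arrays, 273, 320 and 411 in short-term muscle and 298, 216, 215 and 209 in long-term muscle. It rose by 0.47 on the log2 scale (0.14 to 0.81, adjusted p = 0.0246), and a second probe set gave 0.93. All short-term arrays lay above all controls, but the call was lost without control replicate 1 (0.111), on the deposited scale (0.32) and at a common median of all probe sets (0.214). Its call in long-term against short-term muscle (-0.47, adjusted p = 0.0267) was lost without short-term replicate 4 or long-term replicate 2, 3 or 4 (0.0542 to 0.0785). Dnajc9, which chaperones histones, was the other to rise (0.30, adjusted p = 0.0406), but it did not pass in all 7 scalings. Dnajb4 and Dnaja2, both HSP70 partners, fell by 0.79 and 0.55: Dnajb4 from 1978 to 2778 in control to 1029 to 1962 in short-term muscle, and Dnaja2 from 2245 to 2715 to 1391 to 2190, without overlap. Dnaja1, Dnaja4, Dnajb2, Dnajb5 and Dnajb6 did not pass, with changes of -0.21, -0.43, -0.21, -0.73 and 0.33 in short-term muscle.

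Dnajc21, a DnaJ protein of ribosome maturation, had the largest fall of all 58 members. It read 408, 348, 444 and 364 on the control arrays, 63.3, 171 and 183 in short-term muscle and 387, 352, 351 and 488 in long-term muscle. The short-term arrays overlapped neither other group, with a change of -1.51 (-2.05 to -0.98, adjusted p = 0.000265) and then of 1.52. Dnajc2, which binds the ribosome beside Hspa14, changed by -0.78 (-1.30 to -0.27, adjusted p = 0.016) and by 1.01, from 775 to 924 in control to 315 to 845 in short-term and 855 to 1576 in long-term muscle, so the highest short-term array lay within the controls. The fall of Dnajc2 did not pass when its probe sets were averaged (-0.36, adjusted p = 0.134). Dnajc17, of nuclear speckles, fell by 0.83, and its long-term arrays (68.7 to 78.1) lay between the short-term (34.9 to 64.7) and the control arrays (87.7 to 110.2). Dnajc27 fell by 0.64, Dnajc12 by 0.61, Dnajc13 of endosomes by 0.36 and Dnajc5, of secretory vesicles, by 0.32. The call on Dnajc13 was lost with the median gene held at no change (0.172), and Dnajc12 did not pass in all 7 scalings. The call on Dnajc5 was lost without control replicate 1 (0.0797) or 4 (0.0535), on the deposited scale (0.0719), after quantile normalization (0.417), at a common trimmed mean (0.306) and with the median gene held at no change (0.154). Dnajc7, which links HSP70 and HSP90, gave 0.17 and did not pass. Nor did Dnajc6, Dnajc8 and Dnajc24, at 0.45, -0.25 and -0.36, or Dnajc22, of unassigned compartment, at 0.51. These, with Dnajb14, Dnajc9, Dnajc11, Dnajc12 and Dnajc13, are named only to account for every member and were added after their values were seen.

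Of the 29 cytosolic and nuclear members outside the CCT subunits, 7 were higher and 1, Dnajb1, lower in long-term than in short-term muscle, where 26.2% and 17.4% of all genes were. Beside Dnajc21 and Dnajc2 the higher ones were Dnajb4 (0.75, adjusted p = 0.00288), Dnaja2 (0.59, 0.00328), Dnaja4 (0.60, 0.024), Dnajc27 (0.51, 0.0367) and Dnajc13 (0.45, 0.0152). Dnaja4, a DnaJ partner of HSP70, was lost without long-term replicate 2 or 3 (up to 0.0754), after quantile normalization (0.16), at a common trimmed mean (0.077), with the median gene held at no change (0.0576) and with its probe sets averaged (0.763). Dnajc27 was lost without any 1 of 7 arrays (up to 0.0935), in 4 other scalings (0.0514 to 0.147), with no filter (0.0509) and with only the groups compared (0.0669). Dnaja2 was lost after quantile normalization, and Dnajc13 with the median gene held at no change (0.0701).

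**Figure D4:**
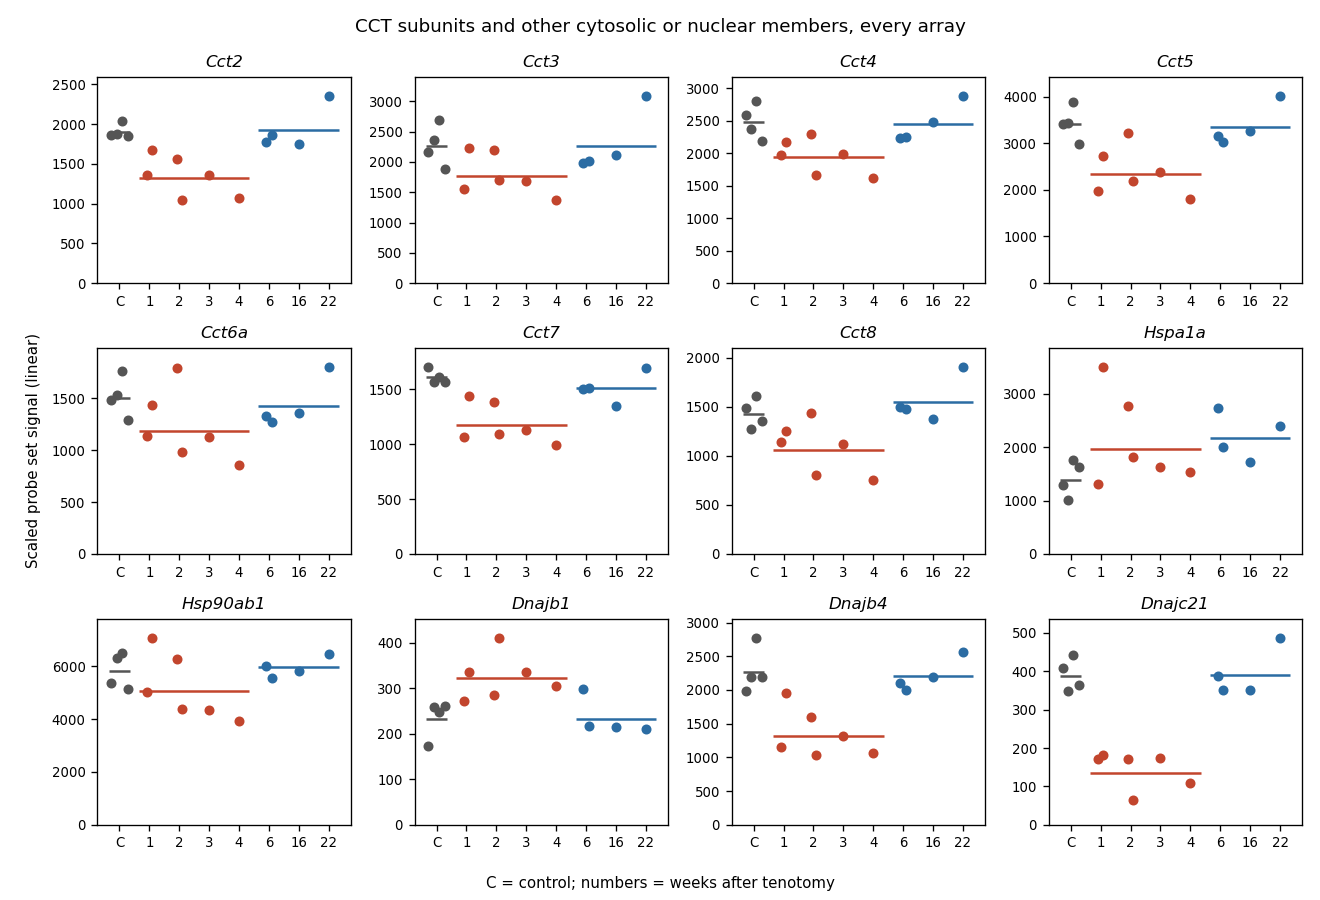
Scaled linear signal of the 7 CCT members and 5 other cytosolic or nuclear members on every array, by group and week after tenotomy (C = control). Bars are geometric means of the control, short-term and long-term groups, and axes start at 0. Dnajc21 separates fully (63.3 to 183 against 348 to 444 in controls), Dnajb1 lies higher in short-term muscle, and Hspa1a and Hsp90ab1 overlap.

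Of 30 tested co-chaperones of HSP70 and HSP90 and heat shock factors, 14 fell and none rose in short-term muscle (median -0.43), and 11 were higher and 1 lower in long-term than in short-term muscle. Over all genes, 26.6% fell and 17.9% rose, and 26.2% were then higher and 17.4% lower. Fkbp4, a co-chaperone of HSP90 in steroid receptor complexes, changed by -1.16, from 704 to 315 and to 626 in the group means. St13, which joins HSP70 to HSP90, fell by 0.68, Bag3, which directs damaged muscle proteins to autophagy, by 0.61 and Hsf1, the factor that binds heat shock elements, by 0.69.

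By time after tenotomy, 9 of 58 members passed the test at 1 week (2 arrays), 8 lower and 1 higher. Of the 11062 genes 23.4% passed in either direction, 1545 lower and 1044 higher. The lower members were Hspa9, Dnajc15, Dnajc4, Dnajc19, Dnajc30, Dnajc18, Dnajc21 and Hspa12b, and the higher one was Dnajc1. Without either array of week 1 a single array stands for it, assumed to vary like the other groups, and the lower calls then numbered 0 without short-term replicate 1. The 1 higher call was lost without short-term replicate 2. The lower calls were 13 without short-term replicate 3 or 4 and 5 without control replicate 3. Hspa9 was at -1.33 at 1 week and -1.67 at 2 weeks.

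At 2 weeks (2 arrays) 18 members were lower and 2 higher (Dnajc1 and Dnajb11), where 21.8% and 16.2% of genes were, and 7 of the 9 mitochondrial members were among the lower. Without short-term replicate 4 these counts were 7 and 1. Between weeks 2 to 4 and week 1, 0 members and 0.958% of genes passed in limma. At an unadjusted p under 0.05 there were 9 members, beside 2096 genes (18.9% of all genes tested). Without short-term replicate 3 the adjusted test called 5 members lower. The mitochondrial members had a median of -0.25 in that comparison, with 0 of 9 above 0.

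The medians of the compartments on each array put the lowest mitochondrial and CCT values at week 4. That array was also lowest for all members together (-0.69) and for the cytosolic and nuclear members outside CCT (-0.57). For the ER it was the lowest of the short-term arrays (-0.19). Relative to the control mean, the mitochondrial median was -0.72 and -0.36 on the 2 arrays of week 1, -0.46 and -1.01 at week 2, -0.97 at week 3 and -1.18 at week 4, and the ER median between -0.19 and 0.22 over the same arrays. The 4 controls themselves spread from -0.25 to 0.19 for the mitochondrial median. Weeks 3 and 4 hold 1 array each and give no test.

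**Figure D5:**
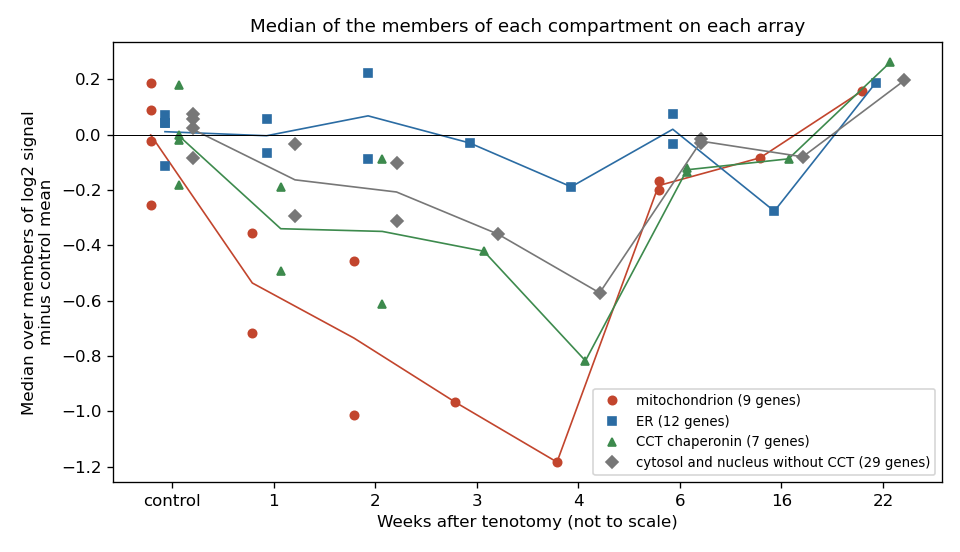
Median over the members of each compartment of the log2 signal minus the mean of the controls, for every array, by week after tenotomy (spacing not to scale). Lines join the means per week. The mitochondrial medians lie at -1.18 at week 4 and between -0.20 and 0.16 from week 6 on, and the ER medians stay between -0.28 and 0.22 on the tenotomized arrays.

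From 6 weeks on the members lay near the controls. At 6 weeks 0 members and 0% of genes passed in limma, with 472 genes and 1 member, Dnajc1 (0.62), at an unadjusted p under 0.05. The mitochondrial median was -0.17 and -0.20 on the 2 arrays of week 6, -0.08 at week 16 and 0.16 at week 22. For long-term against control the intervals were -0.70 to 0.25 for Hspa9, -0.43 to 0.39 for Hspd1, -0.45 to 0.32 for Hspe1 and -0.62 to 0.29 for Hsp90b1. A miss of the threshold does not show that the levels are equal, and with 4 arrays against 4 changes inside these intervals remain compatible with the values.

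Within rats 61 and 62 the 6-week muscle could be set against the control muscle of the same animal. The median member differed by 0.00 in rat 61 and -0.08 in rat 62, and 12 of 58 members were higher and 19 lower in both, beside 3011 and 3139 of the 11062 genes. Among the 7 mitochondrial members that fell in short-term muscle, Hspa9 gave 0.13 and -0.57, Hspd1 0.11 and -0.18 and Hspe1 0.06 and -0.19, in opposite directions in the 2 rats. Dnajc19 (0.18 and -0.03) and Dnajc4 (-0.11 and 0.13) also differed in direction, while Dnajc15 (-0.05 and -0.25) and Dnajc30 (-0.20 and -0.24) were lower in both. Dnajb1 was higher in both (0.20 and 0.33), as was Dnajc1 (0.26 and 0.80). With 2 pairs no test was made.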

How the data were processed

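The deposited values are probe set intensities on a linear scale, which the authors made with MAS5, per the submitters' processing notes; version, scaling target and detection calls are not given in the sources used here. Of 31099 probe sets, 20826 name 1 gene, 436 name several, 9780 name none and 57 are controls; only the first kind was used, with the platform's gene symbols. Each array was put on a log2 scale and shifted to a common median of the genes tested, values were floored at the pooled 25th percentile (9.69), and genes had to exceed the pooled 40th percentile (22.0) on at least 4 arrays. The probe set with the highest mean stood for a gene. The tests used limma (version 3.58.1, run in R 4.3.3) with an intensity trend and all 14 arrays in 1 fit of group means, and in a second fit of time points; p-values were adjusted by the Benjamini-Hochberg method over 11062 genes, at 0.05.

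The members, compartments and gene lists were chosen with earlier results of these data known. The named genes are a fixed set of family members plus, per comparison and compartment, up to 5 in each direction with the largest change among those called without overlap of the groups. Replicates were numbered in accession order, and rats 61 and 62, which gave a control and a 6-week muscle each, paired arrays whose deviations from the group means correlated at 0.41 and 0.22. P-values measure the spread between these arrays, whose number limits the precision. On simulated data of 11062 genes, the short-term against control test recovered 71% of 200 genes changed by 1 and 0.5% of 200 changed by 0.5 (log2), and long-term against short-term 69.5% and 0%; far fewer genes changed there than were called in these data, so these shares set no limit for them. The alternatives were 6 other scalings, of which centring on the median gene was chosen after seeing the data, other filters, no floor, the mean of a gene's probe sets, no trend, only the groups compared, rat as a random block and leaving out each array. Promoters and motif matches came from RefSeq windows (GRCr8).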

Additional observations from a re-analysis of the deposited data

Results flagged for a closer look

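Of 147 checks of a group for a single array apart from the rest, 12 found one, where chance gives about 1 in 20. Among the controls these were replicate 3 for Cct2 (2039), replicate 2 for Dnaja2 (2245), Dnajc19 (2189) and Hspa1l (39.8), and replicate 1 for Dnajb1 (172), the last of which carries the call on that gene. In short-term muscle they were replicate 6, at week 4, for Dnajb12 (42.4) and replicate 3 for Hspa1l (32.3). In long-term muscle they were replicate 4, at 22 weeks, for Cct3 (3089), Dnajc2 (1576) and Hspa12a (124), replicate 1 for Dnajb1 (298) and replicate 3 for Dnajc18 (146).

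The change from control differed between short-term and long-term muscle for 26 members, which is the long-term against short-term test in limma. Of the 58 members 23 were higher and 3 lower, where 26.2% and 17.4% of all genes were. Of the 26 members, Dnajc14 (difference 0.58) and Hsp90b1 (difference -0.65) had every short-term array on one side of the mean of the controls and every long-term array on the other.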

How the results depend on the processing

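Among the 49 members named by the rule no called change turned its sign. Dnajc9, Dnajc12 and Dnajc13 were not checked singly in every setting, and their short-term calls did not hold in all 7 scalings. Members higher in short-term muscle (3) numbered 1 on the deposited scale, 1 at a common median of all probe sets, and 6 each after quantile normalization, at a common trimmed mean and centred on the median gene; the lower (25) numbered 38 at the common median of all probe sets. In long-term against short-term muscle the higher (23) numbered 35 at that median and 14 after quantile normalization, and the lower (3) numbered 1 on the deposited scale, 1 at that median, 6 at the trimmed mean and 5 centred. Of all genes the higher (2898) numbered 4692 and 2282 in the same order, and the lower (1920) numbered 1206, 1331, 2537 and 2305. At 1 week the higher (1) numbered 0 on the deposited scale, 2 at the 75th percentile and 3 each after quantile normalization, at the trimmed mean and centred, and the lower (8) numbered 14 on the deposited scale and 29 at that median. Of all genes the higher (1044) numbered 521, 1021, 997, 1263 and 1203 in the same order, and the lower (1545) numbered 1800 and 3183. At 2 weeks the higher (2) numbered 1, 1, 6, 5 and 4 on the deposited scale, at that median, after quantile normalization, at the trimmed mean and centred, and the lower (18) 37 and 34 on the first 2 of these. Of all genes the higher (1793) numbered 679, 1086, 1667, 2222 and 2024 in the same order, and the lower (2416) numbered 4472 and 4171. The median gene of short-term against control lay at -0.31 on the deposited scale, -0.34 at that median and 0.04 at the trimmed mean. Relative to it the median member lay at -0.24 in each of these, and at -0.09 after quantile normalization. The cause was not tested. The median change of all members in short-term muscle was -0.58 at that median; that of the ER was -0.16 on the deposited scale, -0.19 at that median and 0.20 at the trimmed mean; that of CCT was -0.16 after quantile normalization. In long-term against short-term muscle, all members gave 0.49 on the deposited scale, 0.60 at that median and 0.17 at the trimmed mean, mitochondrial members 0.97 at that median and 0.50 after quantile normalization, ER members 0.19 at that median, cytosolic and nuclear members 0.46, 0.57, 0.13 and 0.19 on the deposited scale, at that median, at the trimmed mean and centred, and CCT 0.62 at that median and 0.065 after quantile normalization.

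Leaving out 1 array at a time gave 1 to 3 higher and 21 to 31 lower in short-term muscle, 16 to 29 higher and 2 to 4 lower in long-term against short-term muscle, 0 to 2 higher and 0 to 13 lower at 1 week, 1 to 3 higher and 7 to 26 lower at 2 weeks, and 0 to 5 lower in weeks 2 to 4 against week 1. With rat as a random block for the pairing of rats 61 and 62 (correlation 0.33), 3 members were higher and 26 lower in short-term muscle, 23 higher and 4 lower in long-term against short-term muscle and 0 in long-term or 6-week muscle against control; besides Dnaja3 and Hsp90b1, named with their values, it moved no count by over 1.5 times.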
